A study of Mus musculus with 4 samples.

Results

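The 9 genes followed belong to the calcium machinery of the cochlea: the mobile buffer genes Calb1, Calb2, Pvalb and Ocm, the calmodulin genes Calm2 and Calm3, and the plasma membrane calcium ATPase (PMCA) genes Atp2b1, Atp2b2 and Atp2b4. They were chosen by name, and all 9 of 9 were found among the 23420 genes of the data and passed the minimum of 100 reads that 16090 genes passed. Cochleae of Atoh1-GFP transgenic CD1 mice at postnatal day 1 were cultured overnight, and each organ was then either left untreated (control) or exposed to the aminoglycoside gentamicin at 0.5 mM for 3 h. Cells were sorted by flow cytometry into a GFP-positive population, called hair cells (HC), and a GFP-negative population, called non-hair cells (NHC), and polyadenylated RNA of each was sequenced in 3 replicates per group, 12 libraries in all. All 4 groups carried the transgene, in which the Atoh1 enhancer drives GFP. The sort left out weakly fluorescent cells, among them inner phalangeal cells according to the paper. The GFP-negative population is a mixture of supporting cells, neighbouring epithelium and surrounding tissue, and inner and outer hair cells were not separated.

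Calcium enters hair cells through the mechanotransduction channels of the hair bundle and through voltage-gated channels at the ribbon synapse. Mobile EF-hand proteins such as calbindin, calretinin, parvalbumin and oncomodulin bind it within the cell, calmodulin turns its level into changes of enzyme and channel activity, and PMCA pumps, whose activity calmodulin raises, push it out across the plasma membrane. Loss of the PMCA2 pump of the hair bundle, the product of Atp2b2, causes deafness in mice.

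Calm2 and Calm3 encode one and the same protein, so their transcripts differ without any difference in product. In the reference, the coding regions of Calm2 and Calm3 had 447 bases each and their translations were identical at all 149 residues, yet 78 of the 447 bases differed. The first 102 coding bases are shown, with the 15 positions at which the pair differ in capitals, because reads of the pair can be told apart only by such differences and by their untranslated ends.
Calm2: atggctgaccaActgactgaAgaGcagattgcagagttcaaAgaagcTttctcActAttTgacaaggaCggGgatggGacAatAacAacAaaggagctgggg
Calm3: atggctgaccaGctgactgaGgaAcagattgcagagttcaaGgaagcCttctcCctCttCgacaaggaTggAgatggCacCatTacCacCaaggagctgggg
Words of 50 bases shared with other annotated genes, mainly predicted genes with Gm symbols, made up 12.7% of the Calm2 transcript and 2.77% of the Calm3 transcript, so the Calm2 counts are the less certain of the pair. The shares were 2.13% for Atp2b1, 1.1% for Atp2b4 and 0.0793% for Atp2b2, and 0 for Calb1, Calb2, Pvalb and Ocm. The proteins of the other families were less alike: Calb1 and Calb2 were identical at 60.8% of aligned residues, Pvalb and Ocm at 48.6%, and the PMCA members at 74.3% (Atp2b2 with Atp2b4) to 82.7% (Atp2b1 with Atp2b2).

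RefSeq promoter windows (250 bases before to 50 after a transcription start, GRCm38.p6, the same coordinates as mm10) were found for 6 of the 9 genes, in 10 windows, and none for Calb1, Calb2 and Calm2. Windows are printed for the pair of genes that changed with gentamicin in hair cells, Atp2b4 and Calm3, and for Ocm and Pvalb, which were among the genes most enriched in hair cells. Capitals mark the E-box letters CAGNTG or, on the other strand, CANCTG, the kind of element that basic helix-loop-helix factors such as Atoh1 bind. The Atp2b4 window (chr1:133753698-133753997, minus strand) lay within the annotated gene, at an internal start, and the Ocm window (chr5:144050560-144050859, minus strand) lay upstream of the start given by GENCODE. The Calm3 window was chr7:16923983-16924282 and the printed Pvalb window chr15:78206351-78206650, both on the minus strand. Pvalb had another window, chr15:78204188-78204487, which held no E-box letters and is not printed.
Atp2b4: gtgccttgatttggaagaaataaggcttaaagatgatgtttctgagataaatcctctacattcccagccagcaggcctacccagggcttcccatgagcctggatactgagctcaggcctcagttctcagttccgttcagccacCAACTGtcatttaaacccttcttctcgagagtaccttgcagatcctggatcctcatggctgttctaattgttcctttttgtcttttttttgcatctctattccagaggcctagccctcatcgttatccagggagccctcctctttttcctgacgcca
Calm3: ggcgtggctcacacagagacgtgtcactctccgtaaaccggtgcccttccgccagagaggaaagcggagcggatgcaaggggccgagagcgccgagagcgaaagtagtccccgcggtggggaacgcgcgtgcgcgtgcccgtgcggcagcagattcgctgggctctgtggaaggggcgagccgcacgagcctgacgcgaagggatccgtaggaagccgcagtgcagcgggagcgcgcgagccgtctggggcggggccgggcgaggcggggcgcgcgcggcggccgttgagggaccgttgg
Ocm: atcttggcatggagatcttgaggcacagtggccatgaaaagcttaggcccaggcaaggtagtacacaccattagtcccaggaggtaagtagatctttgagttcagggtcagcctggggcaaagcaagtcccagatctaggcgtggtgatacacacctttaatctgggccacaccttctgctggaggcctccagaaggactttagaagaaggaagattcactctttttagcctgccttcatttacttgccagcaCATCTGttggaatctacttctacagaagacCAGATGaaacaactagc
Pvalb: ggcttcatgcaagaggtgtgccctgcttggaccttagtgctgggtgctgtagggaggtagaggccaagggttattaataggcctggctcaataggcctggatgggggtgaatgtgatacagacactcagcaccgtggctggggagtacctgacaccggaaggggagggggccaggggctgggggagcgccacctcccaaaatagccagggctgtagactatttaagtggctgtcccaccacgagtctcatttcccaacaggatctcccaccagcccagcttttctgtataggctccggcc
The letters occurred in 4 of the 10 windows, those of Atp2b4 and Ocm and others of Atp2b2, and in 51.4% of all 32851 windows of the same length. The Calm3 window held 72% G and C and the Atp2b4 window 47.7%, against a median of 52.7% over all windows. A match of letters is a description and was not tested as a binding site.

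The values are normalized read numbers: reads times a factor of each library plus 1, without division by gene length, so that a gene with no read is listed at 1. Between 22399803 and 28151367 reads per library lay in genes, and a single read was worth 0.0351 to 0.0461 normalized reads, so counting error was small for every gene here but Ocm in non-hair cells. All 10 listed hair cell markers were higher in control hair cells than in control non-hair cells, and their summed level was 13990 to 14520 normalized reads in the former and 217.8 to 248.4 in the latter. The summed level of 10 supporting cell markers was alike in both (1642 to 1947 and 1440 to 1717). That of 10 spiral ganglion neuron markers was 1108 to 1307 in control hair cells and 760.2 to 1720 in control non-hair cells. At limma adjusted p under 0.05, 2 supporting cell markers were higher and 2 lower in control hair cells. Of the neuron markers 1 was higher and 6 were lower there. Differences below are in log2 of the normalized read number with standard errors from limma fitted to all 16090 genes and 4 groups, and because the 1 is included they understate the change of low genes. In sorted bulk samples, fewer cells of a type and less RNA per cell cannot be told apart.

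To see where these genes were active without the drug, control hair cells were compared with control non-hair cells. All 9 genes were higher in hair cells, and the replicates of the groups did not overlap for any of them (adjusted p under 0.05 after Benjamini-Hochberg correction over all genes). Among all genes, 74.0% were called in this comparison, 31.9% as higher and 42.1% as lower in hair cells, and the replicates did not overlap for 79.1%. The median difference of the 9 genes was 2.04 on the log2 scale and that of all genes -0.12. With median-of-ratios scaling the median of all genes moved to -0.01, and the 9 calls were all still made.

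The widest contrasts were those of the mobile buffers Ocm and Calb1. Calb1, which encodes calbindin-D28k, was at 1855, 1838 and 2235 normalized reads in control hair cells and at 46.5, 43.1 and 68.8 in control non-hair cells. The lowest hair cell library was far above the highest non-hair cell library, a difference of 5.25 ± 0.20 (SE, n = 3 and 3, limma adjusted p = 9.32e-10) or 38.1-fold. Ocm, which encodes oncomodulin, the parvalbumin of outer hair cells, was at 40.6, 62.6 and 69.9 in control hair cells and at 1.04, 1.24 and 1.19 in control non-hair cells. The non-hair cell values stood for 1, 6 and 5 reads, 12 in all, with an exact 95% Poisson interval of 6.2 to 21 that covers counting error only. The fitted difference of Ocm was 5.61 ± 0.30 (limma adjusted p = 1.68e-08), and the ratio of the means once the 1 was taken off was 360.5, against 48.7-fold with it.

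Pvalb, the classical parvalbumin of fast neurons and hair cells, was at 338, 293 and 302 normalized reads in control hair cells and at 22.5, 41.6 and 35.1 in control non-hair cells, a difference of 3.28 ± 0.36 (limma adjusted p = 5.45e-06). Calb2, which encodes calretinin, had the smallest contrast of the 4 buffers, at 593, 640 and 628 in control hair cells and 112, 228 and 228 in control non-hair cells. Its difference was 1.79 ± 0.39 (limma adjusted p = 0.00138). The control non-hair cell library with 112 was the lowest of its group for every gene followed except Calb1.

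Calm2 and Calm3 were high in both populations. Calm2 was at 746, 737 and 857 normalized reads in control hair cells and 248, 277 and 255 in control non-hair cells, 2.99-fold apart (log2 difference 1.58 ± 0.10, limma adjusted p = 5.32e-08). Calm3 was at 1110, 1100 and 1108 in control hair cells and at 391, 480 and 476 in control non-hair cells, a difference of 1.31 ± 0.10 (limma adjusted p = 2.31e-07).

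Of the pumps, Atp2b2, whose product PMCA2 serves the hair bundle, was at 409, 400 and 394 normalized reads in control hair cells and at 25.3, 54.4 and 61.2 in control non-hair cells. The difference was 3.19 ± 0.40 (limma adjusted p = 1.76e-05). Atp2b1, which encodes the widely expressed PMCA1, was at 724, 669 and 771 in control hair cells and at 163, 174 and 190 in control non-hair cells, 4.11-fold apart (2.04 ± 0.10, limma adjusted p = 9.53e-09). Atp2b4, which encodes PMCA4, had the smallest contrast of the 9 genes, with 143, 155 and 150 in control hair cells and 74.7, 131 and 109 in control non-hair cells. Its difference of 0.55 ± 0.21 (limma adjusted p = 0.0345) no longer passed when any 1 control hair cell library was left out (0.52 to 0.58, adjusted p = 0.0587 to 0.0831) or without the first control non-hair cell library (0.32, adjusted p = 0.149). Atp2b3, the fourth PMCA gene and not one of the 9, was at 71.5, 62.8 and 61.4 against 3.40, 7.63 and 8.63 (3.42 ± 0.30, limma adjusted p = 8.23e-07).

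**Figure D1:**
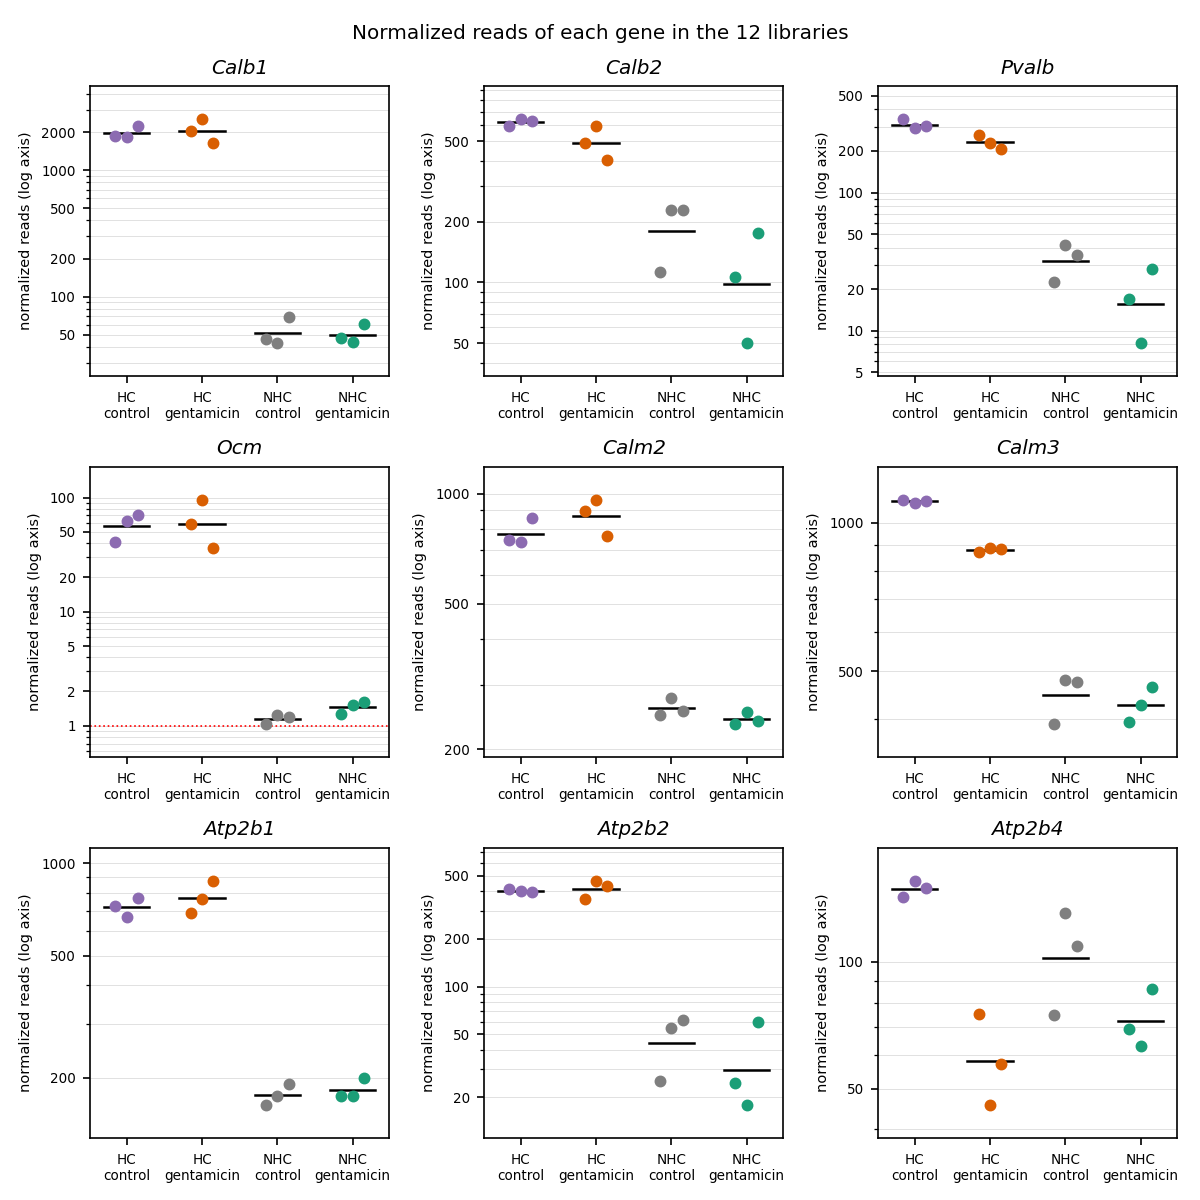
Normalized read number (log axis, with its own range in each panel) of each of the 9 genes in the 12 libraries, 3 per group; points are libraries in the order of their replicate number, bars are geometric means, and the dotted line in the Ocm panel is the value of a gene with no read. Atp2b4 in gentamicin-treated hair cells (75.3, 45.8 and 57.1) lies below its control values, Calm3 separates by treatment in hair cells, and the buffers Calb2 and Pvalb spread widely in non-hair cells.

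Levels were compared between genes only per kilobase of exon, after the 1 was taken off. In control hair cells Calm2 was highest at 647 ± 55.2 normalized reads per kb (SD, n = 3), followed by Calm3 at 482.5 ± 2.496, Calb1 at 468 ± 53.2, Calb2 at 355 ± 14.1 and Pvalb at 298 ± 22.7. Calm3 and Calb1 overlapped between libraries and their order cannot be told, whereas Calm2 and Calm3, and Calb2 and Pvalb, did not overlap. Ocm at 77.4 ± 20.8 and Atp2b1 at 76.4 ± 5.40 also overlapped. With the length of the longest transcript in place of all exons, Calb2 stood at 432.9 beside 467.8 for Calb1, and Atp2b1 at 101.1 beside 86.2 for Ocm. Atp2b2 followed at 42.1 ± 0.815 and Atp2b4 at 12.4 ± 0.512. In control non-hair cells the order was Calm2 (215 ± 12.6), Calm3 (196 ± 21.8), Calb2 (108 ± 38.3), Pvalb (30.8 ± 9.35), Atp2b1 (18.5 ± 1.43), Calb1 (12.3 ± 3.31), Atp2b4 (8.71 ± 2.37), Atp2b2 (4.84 ± 2.01) and Ocm (0.215 ± 0.140). In that order Calm2 and Calm3 overlapped, as did Calb1 with Atp2b4 and Atp2b4 with Atp2b2. Calb1 thus ranked 3 of 9 in hair cells and 6 of 9 in non-hair cells.

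**Figure D2:**
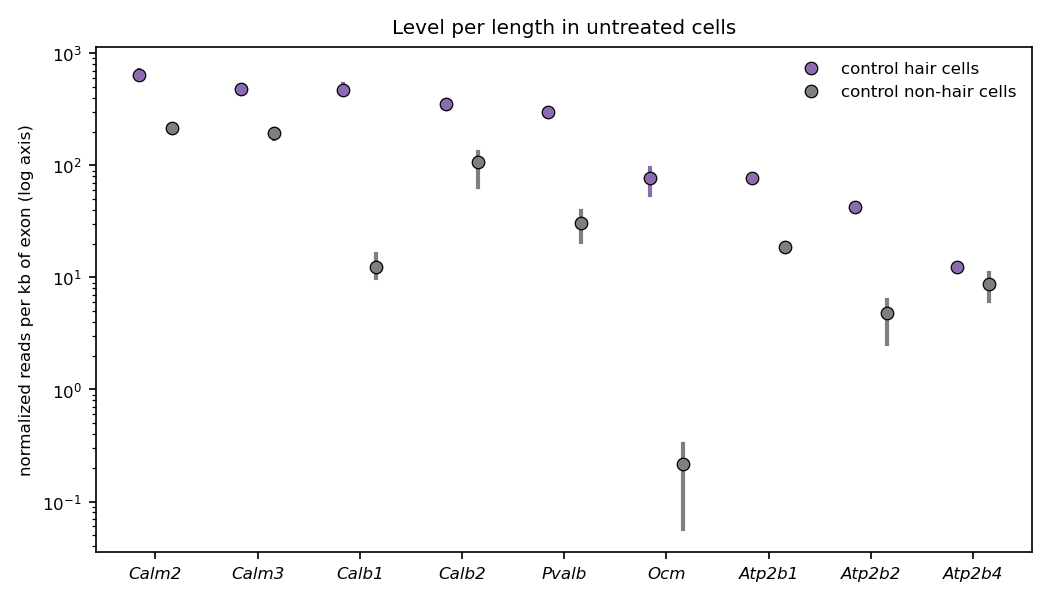
Normalized reads per kb of exon (log axis) of the 9 genes in untreated cells of both populations, hair cells and non-hair cells; points are means of 3 libraries and bars run from the lowest to the highest library. The hair cell values run from 647 for Calm2 to 12.4 for Atp2b4, and the gap between the populations is widest for Ocm and narrowest for Atp2b4.

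Each family had a different make-up in the populations, given here as a description per kb of exon. In control hair cells Calb1 made up 39.0 ± 2.32% of the summed level of the 4 buffer genes (SD, n = 3), Calb2 29.7 ± 1.60%, Pvalb 24.9 ± 2.73% and Ocm 6.43 ± 1.52%. With the length of the longest transcript Calb1 made up 35.8% there and Calb2 33.2%, so the lead of Calb1 depends on the length used. In control non-hair cells Calb2 made up 70.7 ± 3.24% and Calb1 8.61 ± 2.89%, and the ranges of both genes were apart from those in hair cells. Of the sum of Calm2 and Calm3, Calm2 made up 57.2 ± 1.99% in control hair cells and 52.4 ± 2.08% in control non-hair cells. Among the 4 PMCA genes Atp2b1 held the most in both, 52.9 ± 2.07% and 56.6 ± 7.499%, with overlapping ranges. Atp2b2 held 29.2 ± 1.197% in control hair cells and 14.1 ± 3.92% in control non-hair cells, and Atp2b4 8.63 ± 0.618% and 26.0 ± 3.54%.

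With gentamicin, Calm2 made up 65.2 ± 2.68% of the sum of Calm2 and Calm3 in hair cells against 57.2 ± 1.99% in controls, and the shares did not overlap between the groups. The sum itself was 1021 to 1183 normalized reads per kb in treated and 1091 to 1194 in control hair cells, which overlapped. The Atp2b4 share of the PMCA sum was 3.52 ± 1.19% in treated hair cells, and that sum overlapped (127.9 to 154.1, against 138.6 to 147.9 in controls). A comparison of 3 against 3 libraries cannot give a two-sided exact permutation p below 0.1, so no test of these shares is given.

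**Figure D3:**
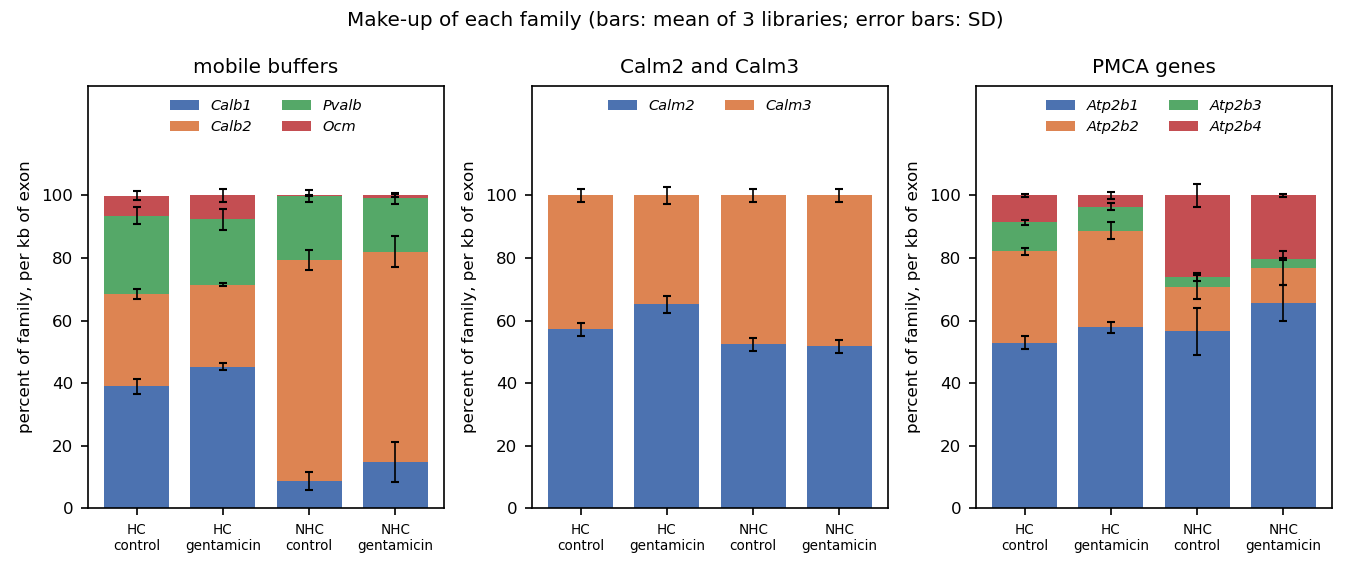
Share of each gene in the summed level per kb of its family, in percent, for mobile buffers, the pair Calm2 and Calm3, and PMCA genes in the 4 groups; stacked bars are means of 3 libraries and error bars the SD of each segment. Calb1 takes a larger share in hair cells and Calb2 in non-hair cells, and the Atp2b4 segment is thinnest in gentamicin-treated hair cells (3.52%).

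To find which of these genes responded to the drug in hair cells, gentamicin-treated hair cells were compared with control hair cells at the study's threshold of unadjusted p under 0.01 and a fold above 1.2. Atp2b4 and Calm3 fell and the other 7 genes did not pass, so 2 of 9 were called, both lower, against 27.5% of all genes called (12.7% higher and 14.8% lower). The replicates did not overlap for 3 of 9 genes (Atp2b4, Calm3 and Pvalb), against 54.8% of all genes. The median difference of the 9 genes was 0.04 and that of all genes -0.09.

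Atp2b4 went from 143, 155 and 150 normalized reads in control hair cells to 75.3, 45.8 and 57.1 in treated ones. Every treated library was below every control library, a 2.56-fold fall (log2 difference -1.36 ± 0.21, 95% interval -1.82 to -0.90, limma adjusted p = 8.04e-04), and the difference was -1.54 to -1.18 when single libraries were left out. The libraries held 3223 to 3603 Atp2b4 reads in controls and 1070 to 1803 after gentamicin. Supporting cell markers moved with it: their summed level was 1642 to 1947 in control and 820 to 1416 in treated hair cells, with 3 of 10 markers called lower and none higher. One of the 10, Hes5, a Notch effector of supporting cells, went from 62.4, 58.6 and 96.2 to 13.4, 13.3 and 29.4. The summed mesenchyme markers went from 530.6 to 777.7 down to 363.3 to 441.8, with 3 of 8 called lower, and the Schwann cell markers from 122.5 to 161.8 down to 77.3 to 113, with 3 of 6 called lower. Of the neuron markers 1 of 10 and of the endothelial markers 1 of 6 were called lower. The summed hair cell markers went from 13990 to 14520 down to 12050 to 13340, with none of the 10 called. Their median difference was -0.06, and they did not move together. Otof went from a mean of 3899 to 2889 and Pou4f3 from 424.5 to 420.8. Atoh1 was higher, at 288, 296 and 304 against 223, 190 and 215 in controls. The summed macrophage markers were 4.61 to 5.78 in control and 15.3 to 21.6 in treated hair cells, with 1 of 6 called higher. The part of other cells in the fall of Atp2b4 was not tested.

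Calm3 went from 1110, 1100 and 1108 to 871, 891 and 886, and the treated libraries, within 1.02-fold of each other, all lay below the controls. The fall was 1.25-fold (-0.33 ± 0.10, 95% interval -0.54 to -0.11, limma adjusted p = 0.0253). This call did not survive scaling by total reads (-0.23, limma adjusted p = 0.107), nor the loss of any 1 of the 6 hair cell libraries, which left the estimate at -0.33 to -0.32 with limma adjusted p = 0.0506 to 0.0664. The marker lists given beside Atp2b4 moved between the same libraries, and their part in the Calm3 value was not tested. Calm2, which gives the same protein, was at 900, 958 and 765 against 746, 737 and 857 in controls, with overlapping libraries and a difference of 0.16 ± 0.10 that did not pass (limma adjusted p = 0.228, 95% interval -0.05 to 0.38).

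Among the buffers, Pvalb was at 260, 229 and 208 in treated hair cells against 338, 293 and 302 in controls. The groups did not overlap, but the difference of -0.42 ± 0.36 did not pass in the fit of all groups (limma adjusted p = 0.388), whose estimate of spread includes the wide spread of Pvalb in non-hair cells. Fitted on control and treated hair cells only, the same difference passed (limma adjusted p = 0.0112). Calb2 was at 491, 597 and 403 after gentamicin and 593, 640 and 628 before, with a difference of -0.34 ± 0.39 and overlapping libraries (limma adjusted p = 0.541). Calb1 (2037, 2516 and 1646, difference 0.05 ± 0.20) and Ocm (58.7, 94.1 and 36.0, difference 0.05 ± 0.30) lay on either side of their controls and changed sign when single libraries were left out. In treated hair cells the second library was highest and the third lowest for Calb1, Calb2 and Ocm alike, and Calm2 shared that order.

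The pumps other than Atp2b4 did not pass in hair cells. Atp2b1 was at 690, 763 and 873 after gentamicin (0.10 ± 0.10, 95% interval -0.13 to 0.32, limma adjusted p = 0.491), so a fall of the size seen for Atp2b4 was outside its interval. Atp2b2 was at 356, 459 and 430 (0.04 ± 0.40, 95% interval -0.83 to 0.91, limma adjusted p = 0.95), and its interval, which draws on the spread in non-hair cells, allowed a change of over 1.2-fold in either direction.

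**Figure D4:**
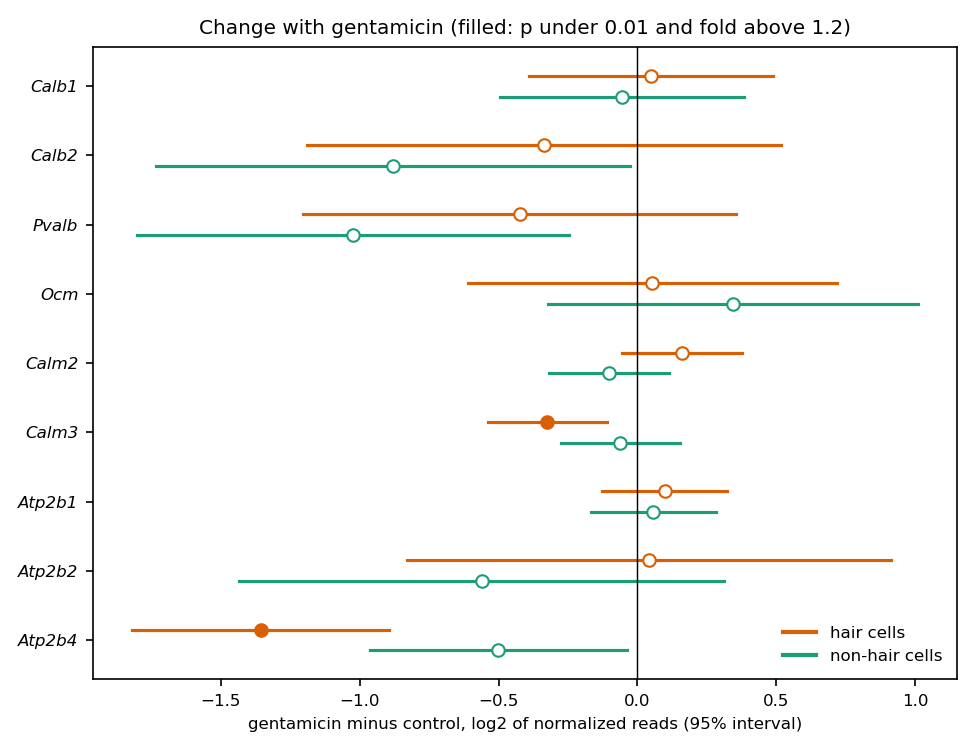
Difference between gentamicin-treated and control libraries in log2 normalized reads for the 9 genes, in hair cells and non-hair cells; points are limma estimates from 3 against 3 libraries, lines are 95% intervals, and filled points passed unadjusted p under 0.01 with a fold above 1.2. The filled points are Atp2b4 (-1.36) and Calm3 (-0.33) in hair cells, and no gene is filled in non-hair cells.

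In non-hair cells none of the 9 genes passed the same threshold in limma, against 5.44% of all genes (3.18% higher and 2.26% lower). An unadjusted p under 0.05 was reached by 3 of 9, all of them lower (Pvalb, Calb2 and Atp2b4). Of all 16090 genes, 2754 reached it in either direction. Pvalb was at 17.1, 8.18 and 28.0 after gentamicin against 22.5, 41.6 and 35.1 in controls, with overlapping libraries (-1.02 ± 0.36, limma adjusted p = 0.185). Calb2 was at 107, 50.2 and 175 against 112, 228 and 228 (-0.88 ± 0.39, limma adjusted p = 0.279). Atp2b4 was at 69.3, 63.1 and 86.0 against 74.7, 131 and 109 (-0.50 ± 0.21, limma adjusted p = 0.259).

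The other 6 genes did not reach an unadjusted p of 0.05 in non-hair cells in the fit of all groups. Atp2b2 was at 24.6, 17.9 and 59.3 against 25.3, 54.4 and 61.2 (-0.56 ± 0.40, limma adjusted p = 0.501). Ocm stood for 7, 14 and 18 reads after gentamicin against 1, 6 and 5 in controls, and it alone of the 9 genes had non-overlapping libraries here (0.34 ± 0.30, limma adjusted p = 0.593), against 17.7% of all genes. Calb1 (46.7, 43.4 and 60.5), Calm2 (235, 252 and 240), Calm3 (396, 428 and 464) and Atp2b1 (175, 175 and 199) had differences between -0.10 and 0.06 and overlapped their controls.

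The spread of Pvalb, Calb2, Atp2b2 and Atp2b4 among non-hair cell libraries ran with that of neuronal genes. The summed level of the 10 spiral ganglion neuron markers was 760.2, 1720 and 1510 in the control and 753.8, 523 and 1239 in the treated libraries. Ordered from high to low, the 6 libraries had the same order for this sum, for Pvalb and for Atp2b4, while Calb2 and Atp2b2 had the same 3 libraries at the top and the same order of the lower 3. The neurofilament gene Nefl was at 126, 322 and 308 in the control and 133, 62.5 and 243 in the treated libraries, and the synaptic gene Snap25 at 40.3, 101 and 86.8 and at 35.4, 15.8 and 68.5. Without the control library lowest in these markers (the first), Pvalb (-1.28), Calb2 (-1.22) and Atp2b4 (-0.73) passed the threshold. Without the treated library highest in them (the third) Pvalb (-1.44), Calb2 (-1.30) and Atp2b2 (-1.06) passed. The limma adjusted p of these genes was 0.0853 to 0.111 and 0.051 to 0.0807. Of all genes 1367 and 1571 passed, in place of 876. For genes that run with these markers, leaving out such a library widens the fall by itself. Leaving out the lowest library of each group, a choice made after seeing the data, gave -0.81 for Pvalb, -0.74 for Calb2 and -0.63 for Atp2b4, which passed. Their limma adjusted p there was 0.133 to 0.182, and 856 of all genes passed. In the other direction, without the second treated library, the lowest in these markers, Pvalb (-0.55), Calb2 (-0.40), Atp2b2 (-0.20) and Atp2b4 (-0.40) did not pass. The part of neurons in these values was not tested.

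**Figure D5:**
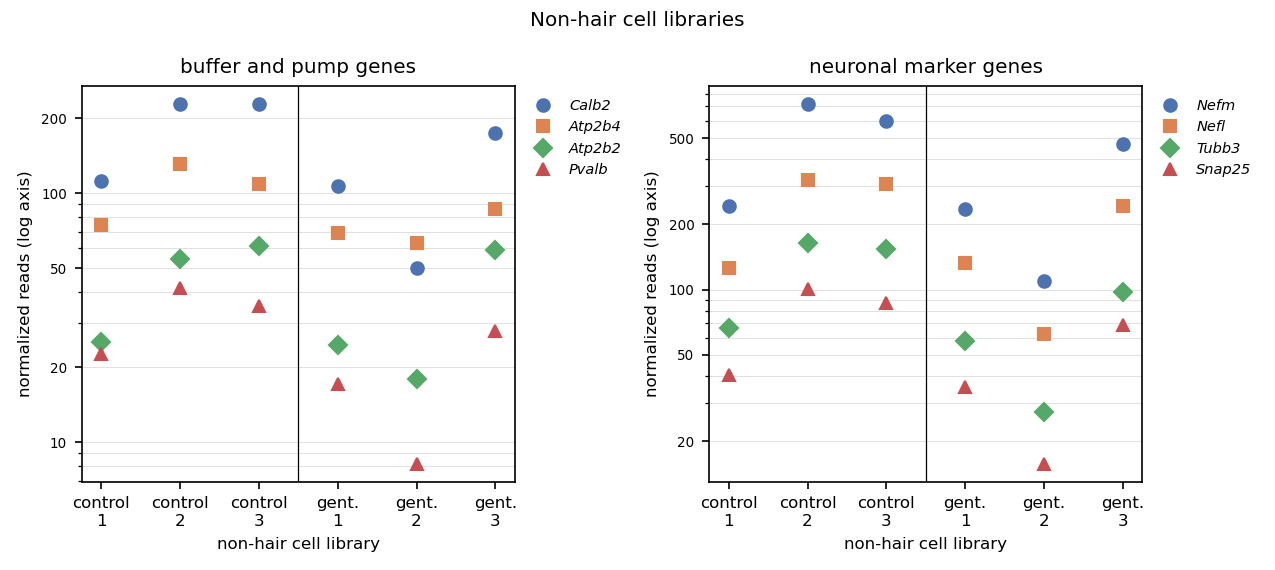
Normalized reads (log axis) in the 6 non-hair cell libraries, 3 control and 3 gentamicin-treated, for Calb2, Atp2b4, Atp2b2 and Pvalb (left) and for the neuronal markers Nefm, Nefl, Tubb3 and Snap25 (right). All 8 genes are low in the first control library and lowest in the second treated library, where Pvalb is at 8.18 and Nefl at 62.5.

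Whether hair cells responded differently from non-hair cells was tested as the difference between the responses. None of the 9 genes passed an adjusted p under 0.05 in limma, against 13.4% of all genes. An unadjusted p under 0.05 was reached by 1 of 9, Atp2b4, and by 4874 of all 16090 genes. The hair cell response of Atp2b4 was lower than the non-hair cell response by -0.86 ± 0.30 on the log2 scale (limma adjusted p = 0.0794, 95% interval -1.51 to -0.20), and it passed only without the first treated hair cell library (-1.04, adjusted p = 0.0434). For Calm3 the difference was -0.26 ± 0.14 (limma adjusted p = 0.223) and for Calm2 0.26 ± 0.14 (limma adjusted p = 0.226). The fall of Atp2b4 and Calm3 in hair cells was therefore not shown to differ from the response of non-hair cells.

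The wider calcium machinery was described with a list of 114 genes, 105 of them besides the 9, of which 95 passed the read minimum. In control cells 79 of the 95 were called between the populations, 35 higher and 44 lower in hair cells, with a median of -0.26. That is 83.2%, beside 74.0% of all genes (31.9% higher and 42.1% lower). Highest by difference were Atp2a3, a sarco-endoplasmic reticulum calcium pump (8.18 ± 0.21), Pcp4, a small protein that binds calmodulin (7.16 ± 0.22), and Cib2, an EF-hand partner of the mechanotransduction channel (5.59 ± 0.08). Cib2 was at 843, 804 and 764 in control hair cells and 15.3, 16.4 and 18.6 in control non-hair cells. Lower in hair cells were S100a16 (-3.46 ± 0.11), S100a6 (-3.00 ± 0.18) and the calmodulin kinase Camk1d (-2.84 ± 0.15).

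With gentamicin 25 of the 95 were called in hair cells, 4 higher and 21 lower, with a median of -0.28 beside -0.09 for all genes. Without the second control hair cell library 15 were called. This share of 26.3% was close to the 27.5% of all genes. Of 22 tested genes of the endoplasmic reticulum pumps, release and store entry 7 were lower and none higher, of 23 S100 and neuronal sensor genes 6 were lower and none higher, of 25 calmodulin kinase, calcineurin and calmodulin-sequestering genes 2 were higher and 6 lower, and of 10 mitochondrial uptake genes 2 were higher and 1 lower. Of 9 tested Golgi pump and exchanger genes 1 was lower, and none of the 3 other PMCA-related genes was called. With total-read scaling, 63.6% of all called genes were higher in treated hair cells, in place of 46.1%, and of the list 7 were higher and 12 lower, so the split by direction depends on the scaling.

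The largest rises in hair cells were those of Ccdc90a (the older symbol of Mcur1, a regulator of mitochondrial calcium uptake), from 19.5, 19.3 and 19.8 to 38.1, 44.9 and 40.2 (1.07 ± 0.09, limma adjusted p = 2.45e-05), Efha2 (the older symbol of Micu3, of the same uptake complex, 0.64 ± 0.19) and Camk2g (0.41 ± 0.10). The largest falls were those of Casq2, a calcium store protein, from 6.69, 5.32 and 6.48 to 2.57, 3.01 and 2.39 (-1.22 ± 0.16, limma adjusted p = 3.53e-04), the neuronal calcium sensor Ncs1 (-0.93 ± 0.22) and Slc24a6 (the older symbol of the mitochondrial exchanger Slc8b1, -0.86 ± 0.15). In non-hair cells 3 of the 95 were called, all higher, among them Ccdc90a (0.37 ± 0.09) and the store-operated channel Orai1 (0.36 ± 0.11). Their limma adjusted p was 0.0811 and 0.13, and the share called was 3.16%, beside 5.44% of all genes. The count was 1 (higher) without the second control or the second treated library, 14 (1 higher and 13 lower) without the first control library and 11 (2 higher and 9 lower) without the third treated library. The response differed between the populations for 16 of the 95, 3 higher and 13 lower in hair cells, or 16.8% beside 13.4% of all genes. Leaving out single libraries gave 5 to 16, with the fewest without the second control hair cell library.

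The genes most like each member over the 12 libraries were found by Pearson's r of the log2 values, as a description over libraries that fall into the same hair cell and non-hair cell clusters, which sets most of r. They were Tmprss7 and Ttc24 for Calb1 (0.999 each), Rell2 and Abcc8 for Calb2 (0.996 and 0.995), Scg5 and Pacsin1 for Pvalb (0.997 each), and Wee2 and Tmc1, the mechanotransduction channel gene, for Ocm (0.997 and 0.996). For Calm2 they were Trappc2 and Efr3a (0.996 each), for Calm3 Bach2 and Cacna2d2 (0.998 and 0.996), for Atp2b1 Synrg and Fam35a (0.999 and 0.998), and for Atp2b2 Nceh1 and Brsk2 (0.999 and 0.997). Atp2b4 had the least similar nearest genes of the 9, Atp6ap1 at 0.946 and Tmem151b at 0.940.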

How the data were processed

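RNA of sorted cells (at least 50000 per replicate, as the methods state) was made into libraries with a poly(A) TruSeq kit and read as single 50-base reads. The authors trimmed read ends below quality 25 and aligned reads to mm10 with TopHat2 (per the submitters' processing notes). The deposited score is a normalized read number; the methods name RPKM, but steps between low values are alike for all genes of a library, so it was treated as reads times a factor per library plus 1. Of low values 82.9 to 83.9% fell on whole reads within 0.1, too few for a count test. The strand setting of the counting and the lane of each library are not given in the sources used here.

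Genes with at least 100 recovered reads over the 12 libraries (16090 of 23420) were fitted on the log2 score with limma 3.58.1 (R 4.3.3), 4 group means, empirical Bayes with a trend in the mean, and Benjamini-Hochberg adjustment. Treatment effects were called at p under 0.01 and fold above 1.2 (the study's rule), the other contrasts at adjusted p under 0.05. Replicates, named biological by the study, have no number in the labels. Their column numbers pair control hair cells with control non-hair cells (correlation of same-numbered deviations 0.216, 0.316 and 0.2), and the blocked fit changed no call of the 9 genes. All members were named in every comparison, of the calcium list the 3 genes with the largest called, non-overlapping change per contrast and direction, and for likeness the top 2 genes without Gm or Rik symbols. The members and lists were chosen with earlier results of these data known. Lengths, positions and coding sequences came from GENCODE M21, and promoters from RefSeq (GRCm38.p6). Tables and figures were made with Python 3.11.15, pandas 2.3.3, scipy 1.17.1, Biopython 1.88 and matplotlib. Alternatives were another scaling (total reads, median of ratios), an offset of 0.1, a minimum of 1000 reads or none, a replicate block, only the groups compared, adjusted p for the treatment effects, longest-transcript length and leaving out single libraries.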

Additional observations from a re-analysis of the deposited data

Results flagged for a closer look

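Among the calcium genes named here, 8 outside the 9 members had a hair cell response that differed from the non-hair cell response (limma interaction, adjusted p under 0.05). Some of them were named because they passed this same test, so this number follows from the naming. Of the 95 tested genes of the list outside the members, 16 or 16.8% passed it, beside 13.4% of all genes. The difference on the log2 scale was 1.00 for Efha2 (adjusted p = 0.03), 0.70 for Ccdc90a (adjusted p = 0.00569) and 0.60 for Camk2g (adjusted p = 0.0215). Efha2 was at 37.7, 35.2 and 45.7 in control and 64.0, 64.6 and 55.8 in treated hair cells, and between 13.9 and 27.1 in the 6 non-hair cell libraries. The difference was -1.31 for Casq2 (adjusted p = 0.006), -0.86 for Camk1d (adjusted p = 0.0239) and -0.77 for Camkk2 (adjusted p = 0.0337). It was -0.62 for S100a16 (adjusted p = 0.0244) and -0.76 for Slc24a6 (adjusted p = 0.0403). Casq2 was near 2 normalized reads in every non-hair cell library, so its value there rests on few reads. In treated hair cells Casq2 stood for 38, 48 and 39 reads, Camk1d for 43, 36 and 45 and S100a16 for 35, 32 and 39. Groups of 3 libraries were too small for a test of single outlying values.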

How the results depend on the processing

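Of 288 member differences recomputed under other scalings, offsets, read minimums, thresholds, models or libraries (single-library omissions aside), 282 kept their direction and call, 2 lost a call, 4 gained one and none reversed. Other thresholds, read minimums, the replicate block and fits of only the compared groups leave the log2 difference unchanged, so no reversal was possible there. Single-library omissions, given below, did change signs. With total-read scaling 1 member was called in hair cells in place of 2 (Calm3 was lost). Without the libraries lowest in neuronal markers 3 members were called in non-hair cells in place of 0, and 6 genes of the calcium list (1 higher and 5 lower) in place of 3 (all higher). The list count there was 1 with only the compared groups fitted and 0 at adjusted p under 0.05, and over all genes 876 became 383 and 55. In the replicate block the members called numbered 2, 0, 0 and 9 (hair cells, non-hair cells, difference, populations), as without it. Treatment groups share only column numbers (same-numbered correlations -0.232 to 0.683), and over all genes the block called 4620 in hair cells in place of 4418. Longest-transcript lengths moved the control hair cell level of Calb2 to 432.9, Atp2b1 to 101.1 and Atp2b2 to 45.07 per kb.

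Leaving out single libraries gave 1 member called in hair cells each time, 0 to 3 in non-hair cells, 0 to 1 for the difference and 8 to 9 between populations. For the list it gave 15 to 26 in hair cells, 1 to 14 in non-hair cells and 5 to 16 for the difference. Signs changed for Calb1 in hair cells (-0.104 to 0.202), in non-hair cells (-0.198 to 0.151) and for the difference (-0.102 to 0.258), for Ocm in hair cells (-0.290 to 0.403) and for the difference (-0.634 to 0.059), for Atp2b2 in hair cells (-0.036 to 0.148) and for Atp2b1 in non-hair cells (-0.006 to 0.114) and for the difference (-0.047 to 0.122). The cause was not tested. Among the 9 genes, reads were fewest for Ocm in non-hair cells, at 12 over the control libraries.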
